A study of Mus musculus with 7 samples.

Results

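The 40 genes described here are lymphocyte markers read in islets of Langerhans, whose β-cells secrete insulin. They comprised 16 B cell genes, 8 plasma cell genes and 16 T cell genes, out of 21899 genes listed in the count files, and all 40 were matched by Ensembl identifier through GENCODE M21. They had been chosen with the difference between these same islet libraries in view, so that their levels and ratios are a description of the libraries and carry no test. The islets came from second-generation (F2) wild-type C57BL/6 J males whose grandmothers (F0) received dihydrotestosterone (AE) or the oil vehicle alone (control) by injection late in pregnancy. Their fathers were the F1 sons, which had been mated with unrelated wild-type females, so neither group of F2 males was itself treated. The labels name the groups Ctrl and HA, the latter for hyperandrogenism, and do not give the age of the F2 males used for RNA-seq. The labels list 3 control-F2 and 4 AE-F2 samples. Counts were taken from replicate 1 of control-F2 and replicate 4 of AE-F2, the other 5 samples were not analysed here, and no difference between the libraries has a replicate check.

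B cells recognise antigen through a membrane immunoglobulin held by the signalling pair CD79A and CD79B, and after activation they can become plasma cells, which secrete antibody. T cells recognise peptides on major histocompatibility complex (MHC) molecules through the T cell receptor and its CD3 chains, with CD4 or CD8 as coreceptor. Lymphocytes are few in healthy islets, and their presence in and around islets is best known from autoimmune diabetes.

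The deposited values were estimated counts per gene, with a control-F2 total of 16285888 and an AE-F2 total of 21278513. Levels are given as CPM, the counts relative to library size after TMM scaling, by which the AE-F2 library was 1.305 times the size of the control-F2 library. Each fold is the scaled AE-F2 level over the control-F2 level, with a 95% Clopper-Pearson interval that covers counting error only and leaves out the spread between animals. Where the control-F2 library held 0 counts, the fold was computed against a floor of 3 counts per library and is given as a lower bound. This bound leaves out the counting error of the AE-F2 count, and the lower 95% limits of the same genes lie below it. In bulk islet RNA, more cells of a type and more RNA per cell cannot be told apart. The islet label was borne out by the hormone genes Ins1, Ins2, Gcg, Sst, Ppy and Iapp, which together stood at 216208 CPM in control-F2 and 222920 CPM in AE-F2 islets. Singly, the α-cell hormone gene Gcg was 1.37-fold higher (1.37 to 1.38) and Iapp 1.17-fold higher (1.16 to 1.18), while Ins2 had a fold of 0.964 (0.963 to 0.966), and the part of these shifts in the members' differences was not tested.

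The marker label covered members of unlike behaviour in the control-F2 islets. Of the 40 members, 8 held 10 counts or more in the control-F2 library, 5 held 4 to 9 counts and 27 held 3 or fewer, 15 of them at 0. The 8 expressed members were Cd79a, Cd72 and Ralgps2 of the B cell genes, Prdm1, Derl3 and Sdc1 of the plasma cell genes, and Skap1 and Ptprc of the T cell genes. They carried 1865 of the 1913 control-F2 counts of all members, and 2782 of the 4530 AE-F2 counts. These 8 genes were thus read in control islets in which most other lymphocyte markers were at the floor. The other 32 members summed to 48 control-F2 counts and 1748 AE-F2 counts, a fold of 27.9 (95% interval 20.96 to 38.0). These 32 were set apart by their low control-F2 counts, which by itself raises the fold, and the interval leaves that selection out.

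Of the 27 members at 3 control-F2 counts or fewer, 25 held 10 counts or more in the AE-F2 library, where 3.02% of all genes at or below that level in the control-F2 library did so. The remaining pair was Cd3d, with 5 AE-F2 counts, and Tnfrsf17, which was listed at 0 in both libraries. In the other direction, 0.266% of the genes at 3 AE-F2 counts or fewer held 10 or more in the control-F2 library. Of the 8 members expressed in the control-F2 islets, 1 (Ptprc) was higher by 2-fold or more in AE-F2 islets, a call made for 1.24% of all genes at 10 control-F2 counts or more. None of the 8 was lower by as much, a call made for 0.935% of those genes. An interval wholly above equal levels was found for 3 of the 8 (Cd79a, Sdc1 and Ptprc) and for 11.9% of those genes. Under a minimum mean of 10 counts, 30 members were kept and 23 of them were higher by 2-fold or more, beside 3.16% of the 13627 genes kept, while 0 were lower by 2-fold or more, beside 0.66%. These members had been picked from this contrast, and 22 of the 30 passed only through their AE-F2 counts, so that a difference was built into the filter. A member at 3 control-F2 counts, for example, had to reach 17 AE-F2 counts to be kept, which is already a 4.34-fold difference. On the log2 scale, with members at 0 control-F2 counts set to their lower bounds, the median ratio was 3.77 over the 16 B cell members, 3.65 over the 7 plasma cell members other than Tnfrsf17 and 1.74 over the 16 T cell members. With Tnfrsf17, at 0 in both libraries, the median over all 8 plasma cell members was 2.12. These medians include members below the minimum, and the median over the 13627 genes kept was -0.001.

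**Figure D1:**
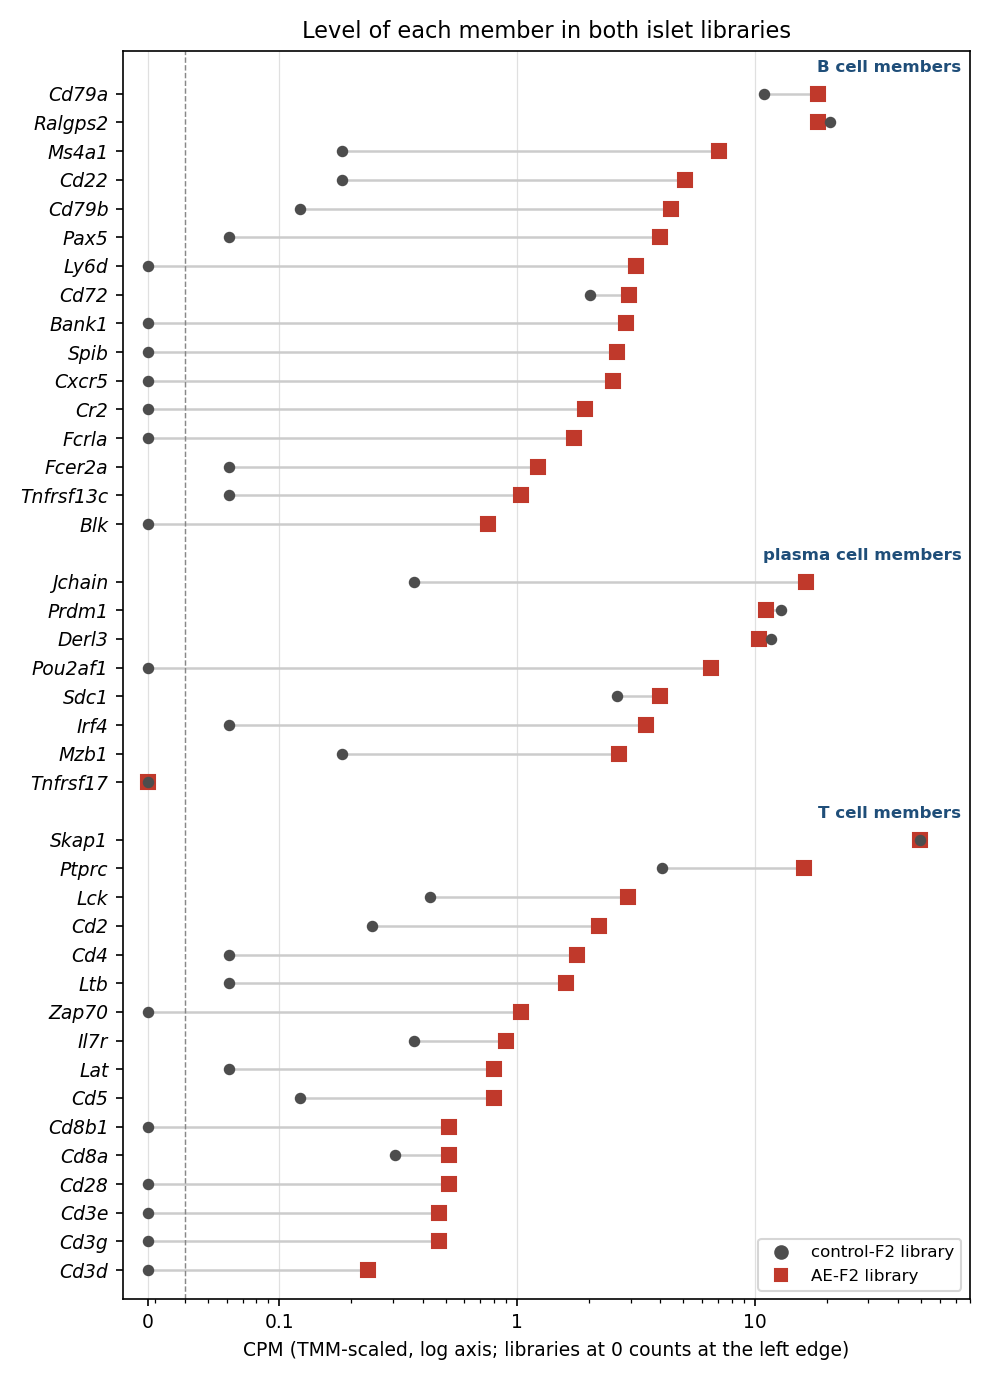
Level of each of the 40 members in CPM (horizontal log axis, with libraries at 0 counts left of the dashed line), with the control-F2 library as circles, the AE-F2 library as squares and a line joining both values of a gene. The circles of 27 members lie at 3 counts or fewer, while Skap1, Ralgps2, Prdm1 and Derl3 show the circle and the square side by side.

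The RefSeq promoter windows on GRCm38.p6, each 250 bases before and 50 after an annotated start, held 29 of the 40 members. The windows of 4 contrasting members are shown, each with every CG dinucleotide, the site of DNA methylation, in capitals. Ralgps2 was expressed in the control-F2 islets and was not higher in the AE-F2 library, Cd79a was expressed in both, and Pou2af1 and Jchain held 0 and 6 control-F2 counts. The windows lie at chr1:156939338-156939637 on the minus strand for Ralgps2, chr7:24897247-24897546 on the plus strand for Cd79a, chr9:51213440-51213739 on the plus strand for Pou2af1 and chr5:88527848-88528147 on the minus strand for Jchain, and all are printed 5′ to 3′ in the direction of transcription.
Ralgps2: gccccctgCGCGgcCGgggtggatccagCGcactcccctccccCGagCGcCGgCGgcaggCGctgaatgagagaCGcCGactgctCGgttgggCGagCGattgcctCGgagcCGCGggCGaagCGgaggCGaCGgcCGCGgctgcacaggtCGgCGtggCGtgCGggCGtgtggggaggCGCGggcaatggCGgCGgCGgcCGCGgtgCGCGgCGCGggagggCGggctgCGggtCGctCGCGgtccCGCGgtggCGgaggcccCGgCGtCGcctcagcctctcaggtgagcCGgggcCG
Cd79a: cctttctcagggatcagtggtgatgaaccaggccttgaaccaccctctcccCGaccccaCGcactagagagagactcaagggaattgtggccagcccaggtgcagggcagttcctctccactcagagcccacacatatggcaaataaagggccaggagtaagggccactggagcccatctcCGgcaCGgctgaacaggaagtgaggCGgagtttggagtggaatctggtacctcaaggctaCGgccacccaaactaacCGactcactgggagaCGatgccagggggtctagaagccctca
Pou2af1: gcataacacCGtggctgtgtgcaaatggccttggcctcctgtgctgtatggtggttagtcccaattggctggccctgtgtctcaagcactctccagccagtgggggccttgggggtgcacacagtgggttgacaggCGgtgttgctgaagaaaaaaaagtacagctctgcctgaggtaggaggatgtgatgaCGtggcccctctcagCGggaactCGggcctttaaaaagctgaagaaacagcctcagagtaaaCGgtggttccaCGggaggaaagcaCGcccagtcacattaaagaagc
Jchain: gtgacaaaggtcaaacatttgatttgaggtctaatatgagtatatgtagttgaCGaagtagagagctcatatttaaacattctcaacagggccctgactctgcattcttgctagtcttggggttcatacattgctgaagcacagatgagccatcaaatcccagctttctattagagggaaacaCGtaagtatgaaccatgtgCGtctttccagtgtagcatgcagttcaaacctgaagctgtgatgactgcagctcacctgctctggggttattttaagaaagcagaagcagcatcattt
The Ralgps2 window held 52 CG dinucleotides, the most among the 29 members with a window. Cd79a and Pou2af1 each held 8, and Jchain held 3. Across the 7 windowed members expressed in the control-F2 islets the median was 14 CG dinucleotides per gene (4 to 52), taking the window with the most where a gene had several. Across the 22 windowed members under 10 control-F2 counts it was 5 (1 to 23). Among all listed genes with a window the medians were 22 for the 10388 genes at 10 control-F2 counts or more and 3 for the 6021 below, so the split among the members also ran through genes that are no lymphocyte markers. The octamer motif ATGCAAAT, known from immunoglobulin promoters, was searched on both strands and was found for 0 of the 29 members, beside 1.97% of the 27025 genes with a window. The motif CCCNNGGG, the core of sites bound by the early B cell factor EBF1, reads the same on both strands and was found for 5 of the 29 members (Bank1, Cd22, Sdc1, Spib and Zap70), beside 15.4% of the 27025 genes, a gene counting once where any of its windows held the motif. Per window the shares were 1.74% for the octamer and 13.7% for CCCNNGGG. These matches describe letters in a window and are no record of binding.

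The B cell members began with the receptor's signalling pair, and here the partners differed in the control-F2 islets. Cd79a, which encodes one chain of the pair, had 178 control-F2 counts and 391 AE-F2 counts, 1.68-fold higher (95% interval 1.41 to 2.02). Cd79b, which encodes the other chain, had 2 and 94 counts, 36.03-fold higher with an interval of 9.70 to 302. Per kilobase of the longest annotated transcript, a scale that allows for the lengths of the genes compared, the control-F2 level was 7.50 CPM per kilobase for Cd79a and 0.0858 for Cd79b. In the AE-F2 library these levels were 12.6 and 3.09, a ratio of 4.09 (95% interval 3.25 to 5.17). The AE-F2 level minus the control-F2 level, in CPM per kilobase, was 5.13 for Cd79a and 3.004 for Cd79b. Cd79a was thus listed in control islets with almost none of its partner, while the differences between the libraries lay closer together than the levels did.

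Surface receptors of the B cell formed the next group. Ms4a1, which encodes CD20, had 3 control-F2 counts and 150 AE-F2 counts, 38.3-fold higher (12.9 to 188). Cd22, an inhibitory lectin of the B cell receptor, had 3 and 108 counts, 27.6-fold higher (9.19 to 136). Cr2, a complement receptor of B cells, was at 0 control-F2 counts and 41 AE-F2 counts, at least 10.5-fold higher. All 3 genes were at the floor in the control-F2 library and well above it in the AE-F2 library. Fcer2a, the low-affinity IgE receptor, had 1 and 26 counts, a fold of 19.9 with a wide interval of 3.27 to 817. Ly6d, a surface protein used to mark committed B cell progenitors, was at 0 and 67 counts, at least 17.1-fold higher. Cd72, an inhibitory coreceptor of B cells, stood apart from these receptors with 33 and 63 counts, and its 1.46-fold interval, 0.946 to 2.30, included equal levels. The exons of Cd72 share 1423 bases with those of Tesk1 on the opposite strand, a gene with 1597 and 1826 counts, and the Cd72 estimates were not whole (33.24 and 63.19). The use of strand in the counting is not given in the sources used here, and without it reads in the shared stretch cannot be assigned to Cd72 or Tesk1.

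Receptors that position B cells or keep them alive were absent or nearly so from the control-F2 counts. Cxcr5, the receptor through which B cells follow CXCL13 into follicles, was at 0 and 54 counts, at least 13.8-fold higher. Its exons share 110 bases with those of Bcl9l, which had 605 and 753 counts. Tnfrsf13c, the BAFF receptor on which mature B cells depend for survival, had 1 and 22 counts, 16.9-fold higher (2.73 to 696).

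Their ligands did not all differ alike between the libraries. Cxcl13, the ligand of CXCR5, had 5 control-F2 counts and 123 AE-F2 counts, 18.9-fold higher (7.87 to 59.1). Tnfsf13b, which encodes the ligand BAFF, had 20 and 22 counts, a fold of 0.843 with an interval of 0.439 to 1.63. Tnfsf13, which encodes APRIL, a ligand of the plasma cell receptor encoded by Tnfrsf17, had 8 and 17 counts, and the interval of its 1.63-fold difference, 0.666 to 4.36, included equal levels. Of these ligands, the chemokine alone had an interval clear of equal levels.

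Among the genes that act inside the B cell, most had no control-F2 counts to speak of. Blk, a Src-family kinase of B cells, was at 0 and 16 counts, at least 4.09-fold higher. Bank1, a scaffold of B cell receptor signalling, was at 0 and 61 counts, at least 15.6-fold higher. Fcrla, an Fc receptor-like protein kept inside the B cell, was at 0 and 37 counts, at least 9.45-fold higher. Pax5, the transcription factor that maintains B cell identity, had 1 and 85 counts, 65.2-fold higher, with an interval of 11.4 to 2604 that reflects the single control-F2 count. Spib, an Ets transcription factor of B cells and plasmacytoid dendritic cells, was at 0 and 56 counts, at least 14.3-fold higher. Ralgps2, an exchange factor for the small GTPase RalA, went against this group, with 338 control-F2 counts and 391 AE-F2 counts. Its fold of 0.887 had an interval of 0.765 to 1.03, so no difference was detectable at this depth. Ralgps2 made up 60.4% of the summed control-F2 counts of the B cell members and 23.5% of the AE-F2 sum.

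Of the 8 plasma cell members, 4 were far higher in the AE-F2 library. Jchain, whose product joins IgM and IgA into polymers, had 6 control-F2 counts and 347 AE-F2 counts, 44.3-fold higher (20.2 to 122). Pou2af1, the coactivator OCA-B of octamer-binding factors, was at 0 and 139 counts, at least 35.5-fold higher. Irf4, a transcription factor needed to form plasma cells and also used by activated T cells, had 1 and 74 counts, 56.7-fold higher (9.87 to 2271). Mzb1, an endoplasmic reticulum protein that aids antibody secretion, had 3 and 57 counts, 14.6-fold higher (4.74 to 72.7). All 4 held 6 control-F2 counts or fewer, and each interval or bound lay above 4-fold. Mzb1 shares 695 exonic bases on the same strand with SPATA24, which was listed at 0 in both libraries.

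The remaining plasma cell members showed no such difference. Prdm1, which encodes BLIMP1, the repressor that drives plasma cell differentiation and that other cell types also use, had 209 and 236 counts, a fold of 0.866 (0.716 to 1.05). Derl3, a component of endoplasmic reticulum-associated degradation in secretory cells, had 191 and 221 counts, a fold of 0.887 (0.728 to 1.08). Sdc1, the heparan sulphate proteoglycan CD138 found on plasma cells and on epithelia, had 43 and 85 counts, 1.52-fold higher (1.04 to 2.24). Tnfrsf17, the receptor BCMA of long-lived plasma cells, was at 0 in both libraries, which allows up to 3 counts in each, so no fold is given. Prdm1 and Derl3 together supplied most of the control-F2 sum of the plasma cell members, with 46.1% and 42.2%, and their shares of the AE-F2 sum were 20.4% and 19.1%. Jchain moved from 1.33% to 29.9% of the sum.

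T cell members of the receptor complex and its coreceptors were read at low counts in both libraries. The CD3 chain genes Cd3d, Cd3e and Cd3g were each at 0 in the control-F2 library, with 5, 10 and 10 AE-F2 counts. Their sum of 25 counts was at least 6.39-fold higher, while Cd3e and Cd3g by themselves gave a bound of 2.56 each. With counting error in both libraries, the lower 95% limit on the log2 scale was 0.78 for Cd3e and Cd3g and -0.51 for Cd3d, so that equal levels of Cd3d were within its error. Cd4, the coreceptor of helper T cells that some myeloid cells also carry, had 1 and 38 counts, 29.1-fold higher (4.92 to 1181). Cd8a, a coreceptor chain of cytotoxic T cells that a dendritic cell subset also expresses, had 5 and 11 counts, and its 1.69-fold interval, 0.540 to 6.19, included equal levels. Cd8b1, the second CD8 chain of cytotoxic T cells, was at 0 and 11 counts, at least 2.81-fold higher. Within AE-F2 islets, the level of Cd4 was 0.575 CPM per kilobase (0.407 to 0.789), above that of Cd8a at 0.165 (0.0826 to 0.296), while its interval overlapped that of Cd8b1 at 0.349 (0.174 to 0.624).

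Costimulatory and adhesion receptors followed the same direction. Cd2, an adhesion receptor of T and NK cells, had 4 and 47 counts, 9.01-fold higher (3.29 to 34.4). Cd5, a damper of T cell receptor signalling that B-1 cells also carry, had 2 and 17 counts, 6.52-fold higher (1.55 to 58.1). Cd28, the main costimulatory receptor of T cells, was at 0 and 11 counts, at least 2.81-fold higher. Il7r, the IL-7 receptor chain of resting lymphocytes, had 6 and 19 counts, and its 2.43-fold interval, 0.932 to 7.43, included equal levels.

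The partners of these receptors were measured as well. Cd48, the mouse ligand of CD2, had 8 and 30 counts, 2.87-fold higher (1.29 to 7.26). Cd86, a ligand of CD28 on antigen-presenting cells, had 8 and 32 counts, 3.07-fold higher (1.38 to 7.70). Cd80, the other CD28 ligand, had 11 and 9 counts, a fold of 0.627 (0.230 to 1.66). Il7, the cytokine bound by the receptor chain encoded by Il7r, had 3 and 6 counts, a fold of 1.53 (0.327 to 9.47). The CD28 ligands thus lay on opposite sides of equal levels, and the interval of Cd86 alone was clear of it.

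Among the kinases and adaptors below the T cell receptor, all but Skap1 were higher in the AE-F2 library. Lck, the kinase bound to CD4 and CD8, had 7 and 62 counts, 6.79-fold higher (3.11 to 17.6). Zap70, the kinase that docks on the CD3 and ζ chains, was at 0 and 22 counts, at least 5.62-fold higher. Lat, the membrane scaffold phosphorylated by ZAP70, had 1 and 17 counts, 13.0-fold higher (2.04 to 545). Skap1, an adaptor that links T cell receptor signalling to integrins, had 807 and 1052 counts and a fold of 0.999 (0.911 to 1.10). Skap1 took 89.7% of the control-F2 sum of the T cell members and 61.6% of the AE-F2 sum, so this sum was mainly a reading of 1 gene that control islets hold at the same level.

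The last T cell members are shared with other leukocytes. Ptprc, the phosphatase CD45 found on all nucleated blood cells, had 66 and 343 counts, 3.98-fold higher (3.05 to 5.27). Ltb, the lymphotoxin β chain through which lymphocytes instruct lymphoid stroma, had 1 and 34 counts, 26.1-fold higher (4.37 to 1059). Its partner chain gene Lta was at 0 and 4 counts, and the receptor gene Ltbr had 400 and 487 counts, a fold of 0.933 (0.816 to 1.07).

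**Figure D2:**
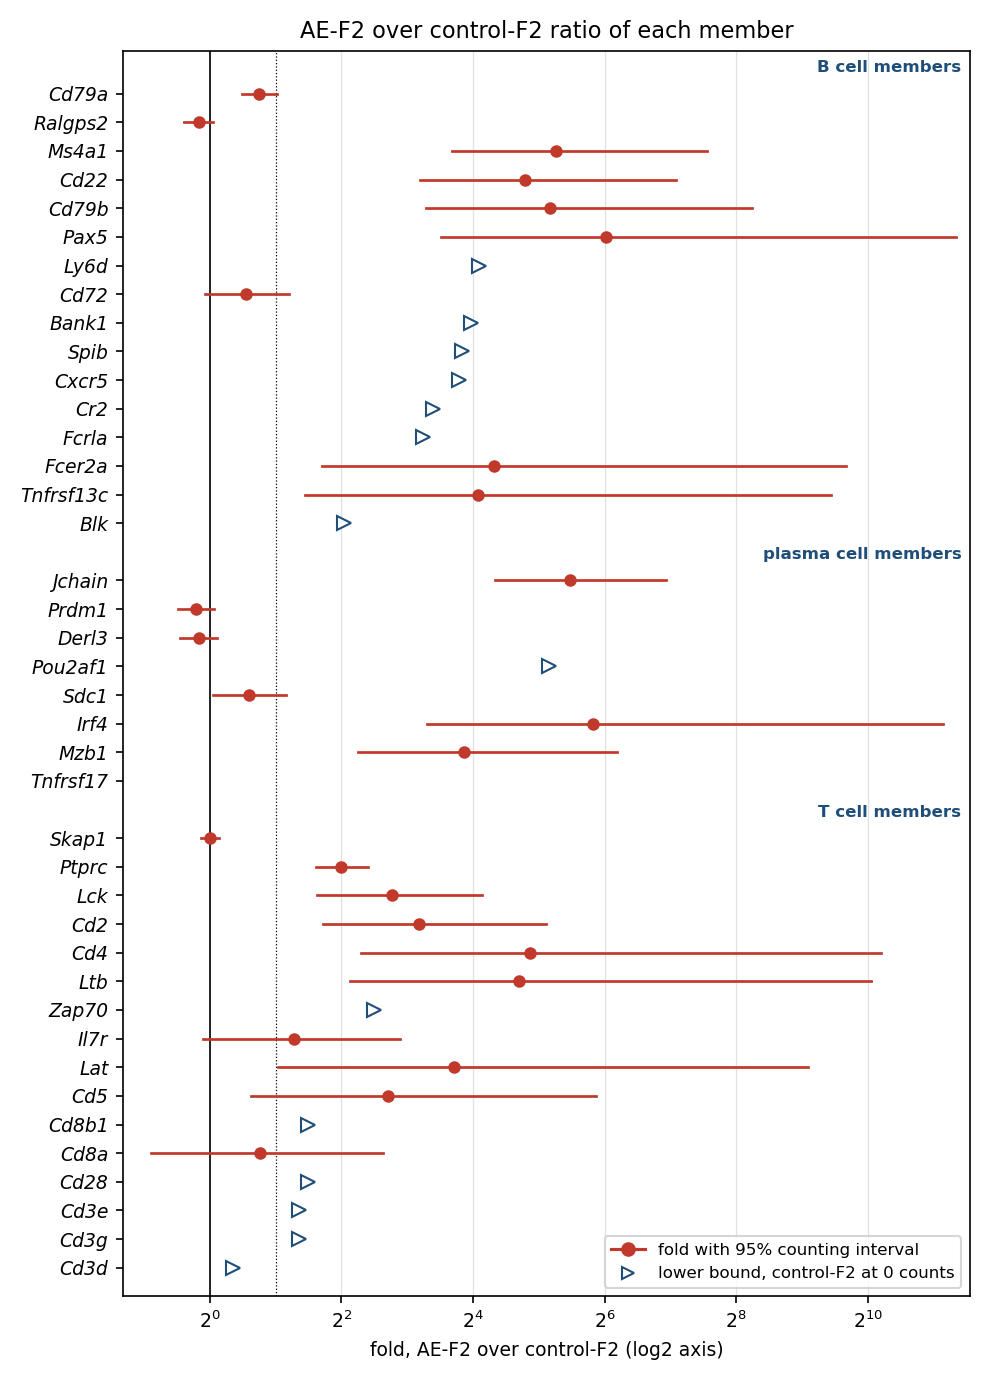
Fold of the AE-F2 level over the control-F2 level for each member (horizontal log axis), with bars for the 95% counting interval, open triangles for lower bounds where the control-F2 library held 0 counts, a solid line at equal levels and a dotted line at 2-fold. Tnfrsf17, at 0 counts in both libraries, has no mark, and Skap1, Ralgps2, Prdm1 and Derl3 sit at equal levels with intervals that include 1.

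The sums over each class depended on which members were added up. A split by control-F2 counts selects on the denominator of the fold. It thereby raises the fold of the members below the threshold, and the intervals leave this selection out. All 16 B cell members summed to 560 control-F2 counts and 1662 AE-F2 counts, or 34.4 and 78.2 CPM, a fold of 2.28 (2.07 to 2.51). The 13 B cell members under 10 control-F2 counts, in contrast, summed to 11 and 817 counts, a fold of 56.9 (31.7 to 115). Cd79a, Cd72 and Ralgps2, the other 3, summed to 549 and 845 counts, a fold of 1.18 (1.06 to 1.32). The threshold of 10 counts split the B cell members cleanly, since the nearest below it were Ms4a1 and Cd22 at 3 counts and the nearest above was Cd72 at 33.

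All 8 plasma cell members summed to 453 and 1159 counts, or 27.8 and 54.5 CPM, a fold of 1.96 (1.76 to 2.19). The 5 under 10 control-F2 counts summed to 10 and 617 counts, a fold of 47.3 (25.5 to 99.1). Prdm1, Derl3 and Sdc1 summed to 443 and 542 counts, a fold of 0.938 (0.826 to 1.07). The higher sum of the class thus lay in the part that had been selected for low control-F2 counts. Here the members nearest the threshold were Jchain at 6 counts and Sdc1 at 43.

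All 16 T cell members summed to 900 and 1709 counts, or 55.2 and 80.4 CPM, a fold of 1.46 (1.34 to 1.58). The 14 under 10 control-F2 counts summed to 27 and 314 counts, or 1.66 and 14.8 CPM, a fold of 8.92 (6.01 to 13.7). Skap1 and Ptprc summed to 873 and 1395 counts, a fold of 1.22 (1.12 to 1.33). The T cell members did not split as cleanly, since Lck, Il7r, Cd8a and Cd2 lay just under the threshold with 7, 6, 5 and 4 control-F2 counts. Over the 10 T cell members at 3 control-F2 counts or fewer, the sum was 5 and 175 counts, a fold of 26.8 (11.3 to 83.7). At that split the fold was 56.9 (31.7 to 115) for the 13 B cell members and 51.7 (19.98 to 191) for the 4 plasma cell members, and the intervals of the 3 classes overlapped.

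**Figure D3:**
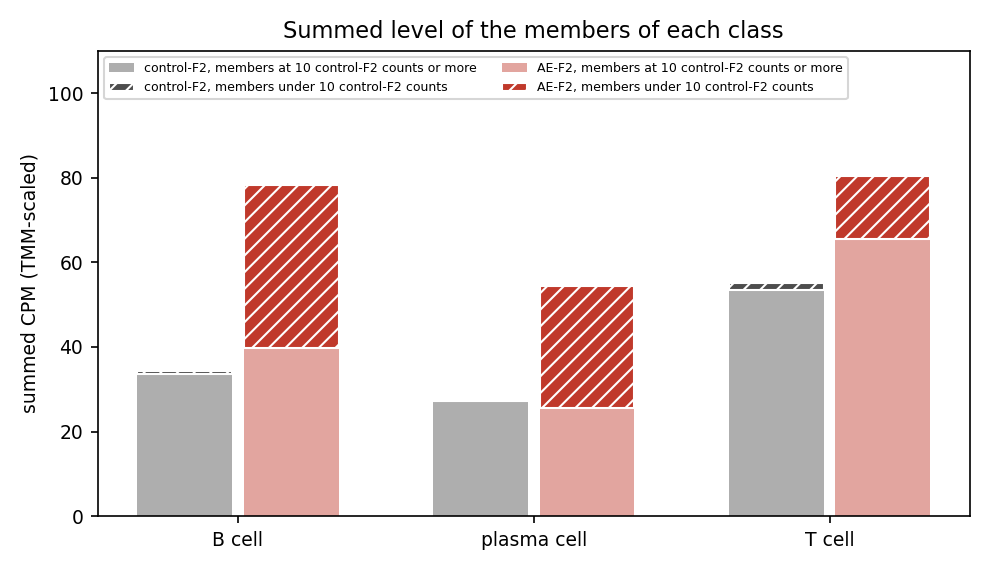
Summed CPM of the members of each class in both libraries, with the members at 10 control-F2 counts or more as the plain part of each bar and the members below 10 as the hatched part. The hatched part was 0.675 and 38.4 CPM for B cell members, 0.614 and 29.0 CPM for plasma cell members and 1.66 and 14.8 CPM for T cell members, while all plain parts lay between 25.5 and 65.6 CPM.

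Levels per kilobase allowed the members to be ordered within the AE-F2 library. Skap1 was the highest of all members at 23.6 CPM per kilobase, followed by Cd79a at 12.6, Derl3 at 7.87 and Jchain at 6.97. Over merged exons in place of the longest transcript the order changed, with Skap1 at 6.63 CPM per kilobase below Cd79a at 12.6, and Ms4a1 at 1.14 close to Cd22 at 1.01. On the longest transcript, the interval of Derl3 (6.87 to 8.98) overlapped that of Jchain (6.26 to 7.75). Among the 13 B cell members under 10 control-F2 counts the order ran from Ly6d at 4.24 CPM per kilobase through Cd79b at 3.09, Ms4a1 at 2.29 and Cd22 at 1.28 down to Blk at 0.324 and Cr2 at 0.310. The intervals of the neighbours Ly6d (3.28 to 5.38) and Cd79b (2.50 to 3.78) overlapped, as did those of Cd79b and Ms4a1 (1.94 to 2.69), whereas Cd22 (1.05 to 1.54) lay clear of Ms4a1. Blk (0.185 to 0.525) and Cr2 (0.223 to 0.421) were indistinguishable by their intervals.

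Among the low plasma cell members, Jchain was highest, and Mzb1 at 2.97 CPM per kilobase (2.25 to 3.84) and Pou2af1 at 2.57 (2.16 to 3.03) overlapped, while Irf4 stood at 0.731 (0.574 to 0.917) and Tnfrsf17 was lowest at 0. Among the low T cell members, Cd2 was highest at 1.92 CPM per kilobase, followed by Lck at 1.33 and Ltb at 1.13, whose intervals overlapped. The CD3 genes lay near the bottom, with 0.145 CPM per kilobase for Cd3d, 0.184 for Cd3e and 0.185 for Cd3g, and their intervals overlapped one another and that of Cd28, the lowest at 0.119. The median AE-F2 level was 0.892 CPM per kilobase for these B cell members, 2.57 for the plasma cell members and 0.308 for the T cell members. Per kilobase, Ms4a1 stood at 12.4 times the level of Cd3e (95% interval 6.58 to 26.5), a pair chosen after its values were seen. A ratio between unlike genes within a library compares transcripts and gives no ratio of cells.

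**Figure D4:**
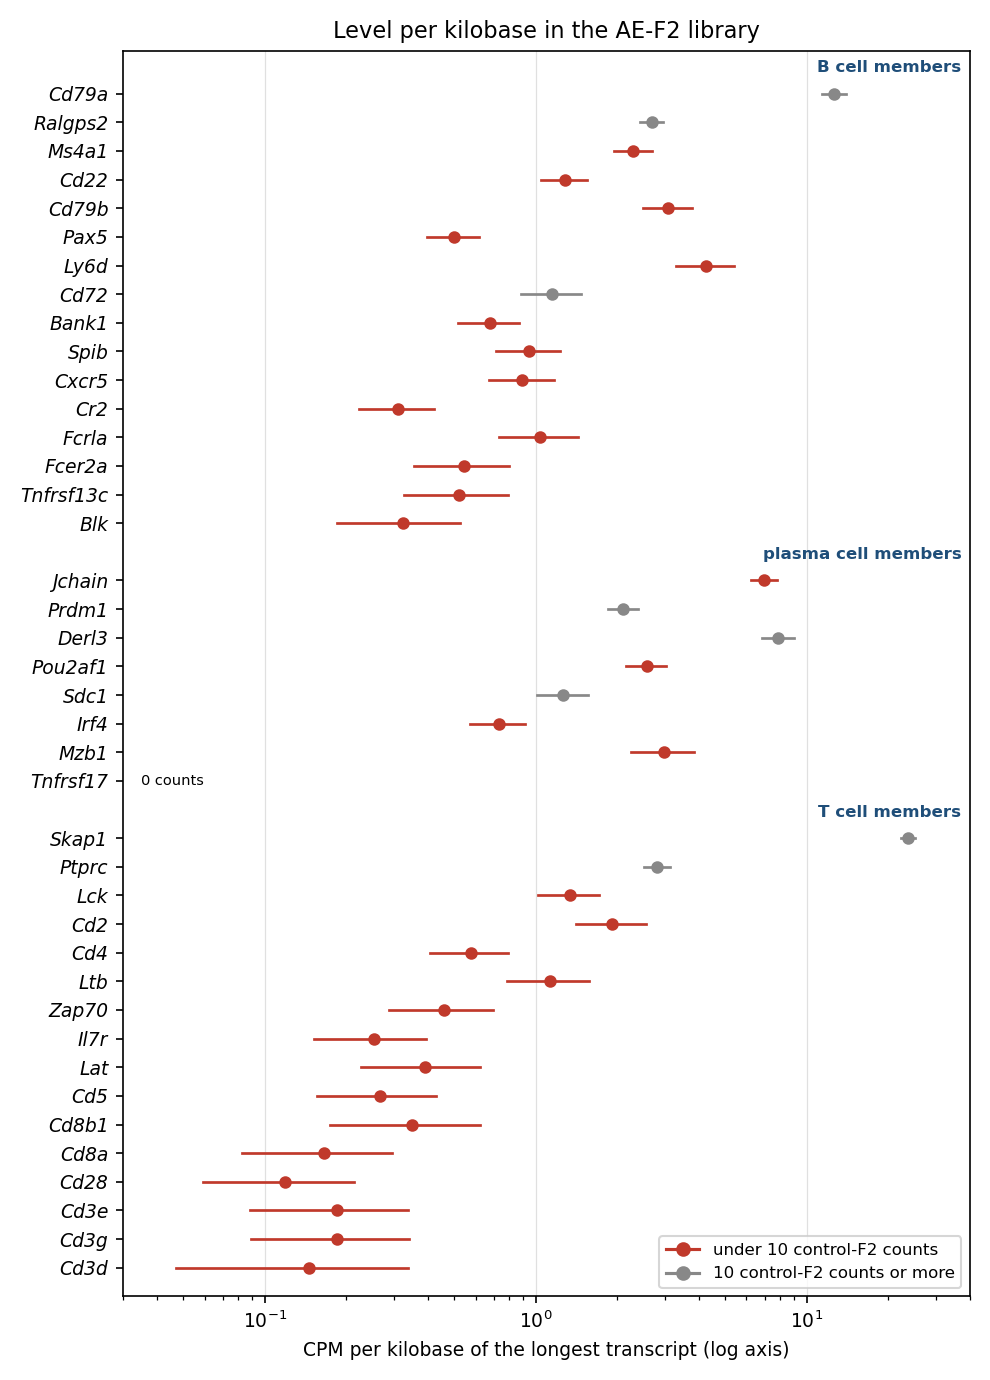
Level per kilobase of the longest transcript in the AE-F2 library (horizontal log axis, CPM per kilobase) of each member, with 95% counting intervals, members at 10 control-F2 counts or more in grey and the others in red. Skap1 is highest at 23.6, and the CD3 genes lie between 0.145 and 0.185 with wide intervals.

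Genes that work beside the members in the same pathways were read from lists that overlap none of them. Of 20 genes of B cell receptor signalling and B cell regulation, 18 passed the mean of 10 counts, 4 of them only through their AE-F2 counts. Of the 18, 8 were at least 2-fold higher, beside 3.16% of all genes kept, and none was 2-fold lower, beside 0.66%. Of the 14 that already held 10 counts in the control-F2 library, 4 were at least 2-fold higher, beside 1.24% of all such genes. The most abundant members of the list differed little: the phosphatase gene Ptpn6 had 595 and 809 counts, a fold of 1.04 (0.936 to 1.16), Plcg2 had 168 and 250 (1.14, 0.934 to 1.40), and Lyn had 140 and 243 (1.33, 1.08 to 1.65). Syk, the kinase recruited by CD79A and CD79B and picked out after its values were seen, had 47 and 166 counts, 2.71-fold higher (1.95 to 3.83).

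The germinal centre list pointed to no single direction among its 6 genes. Bcl6, the repressor that defines germinal centre B cells and is also found in other tissues, had 133 and 90 counts, a fold of 0.519 (0.392 to 0.683). S1pr2, which confines B cells to germinal centres, had 6 and 33 counts, 4.22-fold higher (1.74 to 12.3). Mef2b had 2 and 9 counts, and Gcsam had 0 and 8. Bcl6 and S1pr2 were the 2 of the 6 genes that passed the mean of 10 counts, S1pr2 only through its AE-F2 counts. Among all genes kept, 13.2% had an interval above equal levels and 13.7% one below.

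Of 18 genes of T cell receptor signalling and T cell regulation, 6 passed the mean of 10 counts, 4 of them only through their AE-F2 counts, and 5 of the 6 were at least 2-fold higher, beside 3.16% of all genes kept. Of the 18, 13 were at 3 control-F2 counts or fewer, and 8 of these held 10 AE-F2 counts or more, beside 3.02% of all such genes. Fyn, a kinase of T cells and many other cells, had 292 and 359 counts and a fold of 0.942 (0.805 to 1.10). Lcp2, which encodes the adaptor SLP-76 that binds LAT, had 20 and 55 counts, 2.11-fold higher (1.24 to 3.71), and Tcf7, a T cell transcription factor, had 3 and 44 counts, 11.2-fold higher (3.60 to 56.6). Trac, the T cell receptor α constant region, had 5 and 36 counts, 5.52-fold higher (2.16 to 18.0). The 82 listed T cell receptor gene segments, Trac among them, together had 5 and 75 counts, 11.5-fold higher (4.71 to 36.4).

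The secretory list holds genes of the machinery that plasma cells use to release antibody. The 8 genes of the secretory list summed to 15112 and 19701 counts, a fold of 0.999 (0.978 to 1.02). None of the 8 was 2-fold higher or lower, beside 1.24% and 0.935% of all genes at 10 control-F2 counts or more, and 2 had intervals above equal levels and 2 below. Xbp1, the transcription factor of secretory cells including β-cells, had 5462 and 7076 counts, a fold of 0.993 (0.959 to 1.03). Slamf7, a surface receptor of plasma cells and other leukocytes that was picked out after its values were seen, had 16 and 40 counts, 1.92-fold higher (1.05 to 3.67). Among the products of B cells and plasma cells themselves, 268 immunoglobulin genes summed to 63 control-F2 counts and 9170 AE-F2 counts, a fold of 112 (87.1 to 145).

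**Figure D5:**
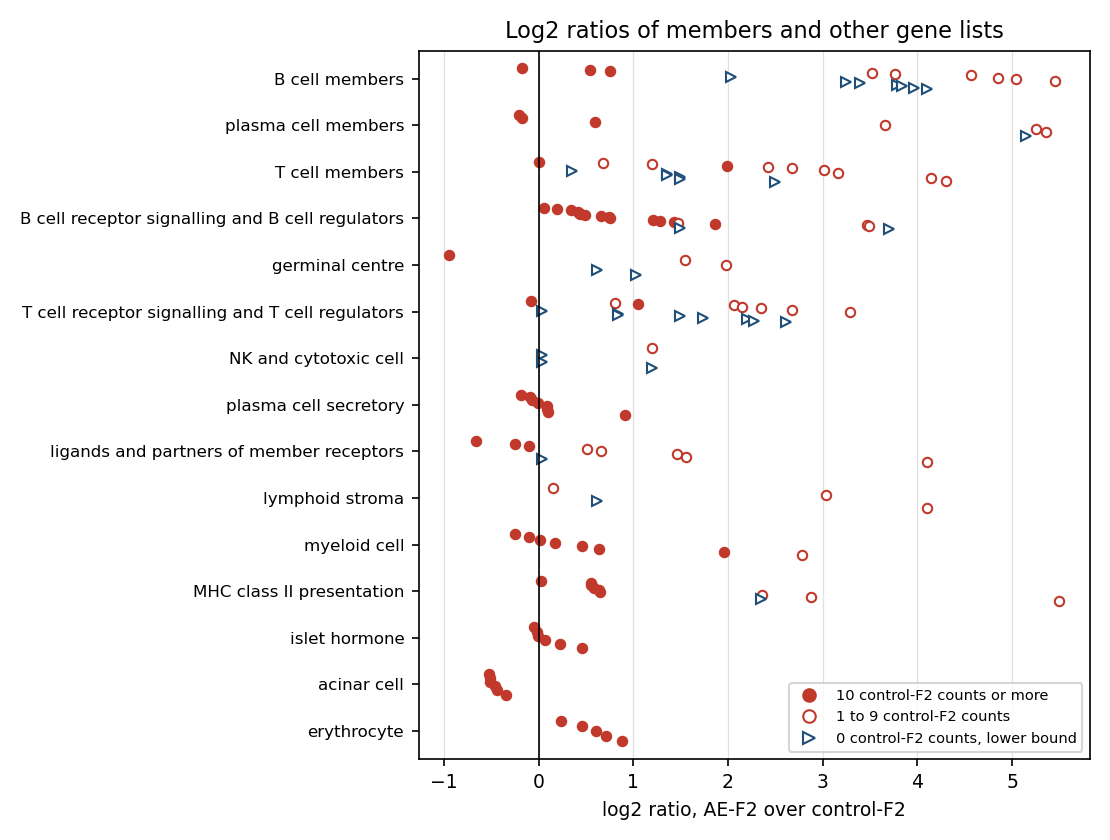
Log2 ratio of the AE-F2 level over the control-F2 level (horizontal axis) of single genes in each member class and companion list, 1 mark per gene, with open triangles for lower bounds and genes at 3 counts or fewer in both libraries not drawn. Circles have 0.5 counts added to each library and triangles use the floor of 3 counts, so circles and triangles cannot be ranked together. Members such as Pax5, drawn at 5.45 from 1 control-F2 count, lie far to the right. Most genes of the plasma cell secretory list lie at the line of equal levels, and the acinar genes lie left of it.

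Markers of other cells also differed between the libraries, and their part in the differences of the members was not tested. Of 9 NK and cytotoxic cell genes, which share CD2, LCK and ZAP70 with T cells, none reached 10 counts in either library. Their sum was 1 and 28 counts, a fold of 21.5 (3.55 to 878) that rests on 1 control-F2 count. Eomes had the most, with 0 and 9 counts, and Gzma and Gzmb were at 0 in both. Of 10 myeloid genes, which share Ptprc, 8 passed the mean of 10 counts and 2 of these (Lyz2 and Flt3, the latter named after its values were seen and kept only through its AE-F2 counts) were at least 2-fold higher, beside 3.16% of all genes kept. The myeloid sum was 64.6 and 82.5 CPM, 1.28-fold higher (1.18 to 1.38), and without Lyz2, left out after its values were seen, the fold was 0.965 (0.885 to 1.05). The macrophage gene C1qa had 592 and 647 counts, a fold of 0.838 (0.748 to 0.938), Lyz2 had 112 and 571, 3.91-fold higher (3.19 to 4.83), and S100a8 and S100a9, which mark neutrophils, were at 0 in both. The 10 genes of MHC class II presentation, a function of B cells and of myeloid cells, summed to 4092 and 8134 counts, 1.52-fold higher (1.47 to 1.58). Of the 10, 4 were at least 2-fold higher, beside 3.16% of all genes kept, namely Ciita, H2-DMb2, H2-Oa and H2-Ob, which were named after their values were seen and were kept only through their AE-F2 counts. Ciita, the class II transactivator, had 8 and 81 counts, 7.76-fold higher (3.76 to 18.6).

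Lymphoid stroma genes summed to 15 and 205 counts over 8 genes, of which Cxcl13 and Ccl19, with 6 and 69 counts, supplied most, and Madcam1 had at most 1 count in either library. Blood in the preparation was read from 5 erythrocyte genes, which summed to 59.3 and 82.4 CPM, 1.39-fold higher (1.28 to 1.505). Exocrine carry-over was read from 7 acinar genes, which summed to 1740 and 1267 CPM, a fold of 0.728 (0.716 to 0.741). The part of these cells in the members' differences was not tested. The islets had been freed with collagenase, separated on a gradient, picked by hand and cultured, and the methods describe no sort of the cells before RNA extraction.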

How the data were processed

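RNA-seq of F2 islets was read from 1 control-F2 and 1 AE-F2 library. The authors deposited estimated counts per gene (expected counts, not scaled for depth or length), 1 file per library. The methods name HISAT2 for alignment, while the submitters' processing notes name Bowtie2, RSEM and DESeq2. The counting settings, genome build and annotation are not given in the sources used here. Of the values, 8.56% of the control-F2 and 9.28% of the AE-F2 ones were not whole, and all were rounded.

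Libraries were scaled with TMM (edgeR 4.0.16, R 4.3.3). Ratios for calls were taken on a log2 scale after adding 0.5 counts, under a minimum mean of 10 counts and a threshold of 2-fold. Folds and 95% Clopper-Pearson intervals (scipy 1.17.1) used the counts without that addition. PCR copies are not independent molecules, so intervals cover counting error only. With 1 library per group no test was made and no p-value computed. A control-F2 count of 0 was replaced by the floor of 3 counts per library, and counts of 1 to 3 were kept with their intervals, although the design had set the floor for these too. The deeper AE-F2 library gives the smaller counting error.

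Symbols, transcript lengths and exon overlaps came from GENCODE M21 (GRCm38), and promoter windows from RefSeq (GRCm38.p6). The 40 members and all companion lists were chosen with earlier results of these data known. All members were named, with up to 4 of the most abundant genes of each companion list, the ligands and partners of the members and overlapping genes. No acinar or erythrocyte gene was named singly. The islet hormone genes were all named as a check of the tissue. Further genes were named as picked after their values were seen or as markers at 0 or near it. The ratio method was tested on simulated data, with known differences only in genes expected well above the floor in the control-F2 library. That test gives no check of the folds of members near the floor. Alternatives were other scalings (DESeq2 1.42.0 size factors among them), pseudocounts, minimum counts, fold thresholds, exon lengths and member sets.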

Additional observations from a re-analysis of the deposited data

How the results depend on the processing

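The fold of the class sums depended on the members summed, and under each other scaling it moved by less than its counting interval. For B cell members it was 4.39 without Ralgps2, 56.9 over the members under 10 control-F2 counts and 1.98 without members whose exons overlap another gene. For plasma cell members it was 2.90 without Prdm1 and 47.3 over the members under 10 control-F2 counts. For T cell members it was 5.42 without Skap1, 8.92 over the members under 10 control-F2 counts and 5.12 without overlapping members. A split at 3 control-F2 counts or fewer, chosen after seeing the data, gave 56.9 for B cell, 51.7 for plasma cell and 26.8 for T cell members, and the myeloid sum without Lyz2, also chosen then, gave 0.965 in place of 1.28. With a minimum mean of 50 counts, 5 members were at least 2-fold higher in place of 23, since fewer were kept, and other settings gave 22 to 31. The log2 ratio of 39 members moved by less than its counting interval under each of the 3 other scalings. A pseudocount of 5 moved 8 of them by more, all at 0 control-F2 counts, and merged exon length moved 11 levels per kilobase. Of the member ratios, that of Skap1 alone changed sign, from -0.0012 to 0.016 on the log2 scale when totals without the 10 most abundant genes set the scaling, a shift within its counting interval. No paired analysis was possible because the libraries analysed carry the replicate numbers 1 and 4, and with 1 library per group none could be left out. Depth limits Tnfrsf17, at 0 counts in both libraries, and the CD3, CD8 and CD28 genes, at 5 to 11 AE-F2 counts.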
